A study of Mus musculus with 12 samples.

Results

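The histone genes of the mouse oocyte are described here across 6 values, 1 for each genotype and stage. Members were all genes whose symbol in the deposited table follows the naming pattern of histone genes, namely H1f, H2a, H2b, H3 and H4 symbols and macroH2A. The pattern found 74 genes among 25162 genes in the table. Of these, 50 were canonical core histone genes (H2ac, H2bc, H3c and H4c symbols with a number), 14 were variant core histone genes and 10 were linker histone genes. The variant Cenpa, the centromeric H3, lies outside the pattern and was counted with the chaperone and processing genes below.

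The study compared oocytes from mice that carry a floxed Rnaseh1 gene, called WT, with oocytes in which the gene was deleted, called KO. The table heads these columns Rnaseh1oo–/– for KO and Rnaseh1fl/fl for WT, so the WT oocytes carry the floxed alleles too. Each genotype was sampled at stages labelled NGO, GO and FGO, names that the labels do not spell out. In this field NGO is commonly the non-growing oocyte, GO the growing one and FGO the oocyte at full size. The labels list 12 samples, which makes 2 per group, and for every sample 10 oocytes were taken and 100 pg of spike-in RNA went in. Neither the labels nor the table state the age of the mice, their strain or the driver of the deletion. Polyadenylated RNA was copied from an oligo-dT primer, so RNAs without a poly(A) tail are measured poorly or not at all. The table holds 1 column per genotype and stage and does not say whether it is a mean, a pool or 1 of the samples. No SD, n or p-value can therefore be given, and no difference below has a replicate check.

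Nucleosomes are built from the core histones H2A, H2B, H3 and H4, and linker histone H1 binds the DNA where it enters and leaves the nucleosome. Canonical histone genes lie in clusters, are used mainly during DNA replication, and give RNAs that normally end in a stem-loop in place of a poly(A) tail. Variant histones such as H3.3, H2A.X and H2A.Z are encoded by genes outside the large clusters, whose RNAs are mostly polyadenylated and also made outside replication; H2ax is known to give RNAs of both kinds. Oocytes are arrested in meiosis, do not replicate their DNA while they grow, and store histones and histone RNA for the embryo. They also have a linker histone of their own, encoded by H1f8 (formerly H1foo).

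Values are FPKM, that is, fragments per kilobase of transcript and sequencing depth, which the authors adjusted to the spike-in. Since FPKM is per length, levels of different genes are compared on this scale. Differences are on the log2(FPKM + 1) scale, and a gene is called higher or lower at a difference of 1 or more, which is 2-fold in FPKM + 1. For low genes this is more than 2-fold in FPKM, so that some with a wide ratio are not called. A gene was compared where its mean over the 6 columns was at least 1 FPKM. This held for 26 of the 74 histone genes (11 canonical core, 11 variant core and 4 linker) and for 10110 of all genes. Of the 26, 13 were under 1 FPKM in some column, and 3 (H2bc12, H3c8 and H4c3) reached 1 FPKM in FGO columns only, so they passed through the stage where they are high. H3c15 also needed its FGO values (4.52 in KO and 1.78 FPKM in WT oocytes) to pass. Before FGO it was at 0.362 and 1.35 FPKM in KO and at 0.644 and 1.41 FPKM in WT oocytes. Just inside the limit stood H2bc12 with a mean of 1.34 FPKM and H3c8 with 1.26 FPKM. Just outside it stood H3c7 with 0.836 FPKM and H4c2 with 0.509 FPKM.

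Rnaseh1 itself, which encodes the nuclease that removes RNA from RNA-DNA hybrids, was at 0.931, 3.10 and 8.02 FPKM in KO oocytes at NGO, GO and FGO, against 8.61, 27.8 and 29.1 FPKM in WT oocytes. The KO columns thus held 10.8%, 11.2% and 27.6% of the WT level. All 12 oocyte markers were at 1 FPKM or more in every column, with sums of 21219 FPKM in KO and 11518 FPKM in WT oocytes at FGO. The summed level of 16 granulosa cell markers was 6.77, 15 and 82.0 FPKM in KO oocytes at the 3 stages, against 3.30, 18.7 and 37.2 FPKM in WT oocytes. At FGO 9 of the 16 were at 1 FPKM or more in KO oocytes and 6 in WT oocytes, led by Esr2 (37.3 in KO and 21.3 FPKM in WT oocytes), Cyp19a1 (10.4 and 6.16), Inha (9.32 and 1.17) and Gja1 (6.96 and 0.965). The markers Amh and Foxl2 were under 0.5 FPKM in every column. Markers of theca and stroma (5 genes), immune cells (3) and endothelium and blood (4) summed to 1.77, 1.96 and 14.6 FPKM in KO oocytes at FGO, against 4.48, 1.10 and 8.46 FPKM in WT oocytes. Pecam1 alone made up the endothelial and blood sum there, and Cd68 nearly all of the immune sum (1.95 in KO and 1.07 FPKM in WT oocytes). Dcn made up most of the theca and stroma sum (1.15 and 4.13). The others on that list were all under 1 FPKM at FGO. Star (0.530 in KO and 0.314 FPKM in WT oocytes), Pdgfra (0.0643 and 0.00914) and Cyp17a1 (0.0225 and 0) were higher in KO oocytes, and Col1a1 (0 and 0.0299) was lower. A list of 15 genes of dividing cells, all at 1 FPKM or more in every column, summed to 151, 400 and 759 FPKM in KO oocytes and to 154, 371 and 392 FPKM in WT oocytes. Several of these genes are also expressed in oocytes. The part of other cells in the results was not tested, and in such pooled oocytes fewer cells of a type and less RNA per cell cannot be told apart. The columns also differed in general level. The median ratio of a column to the geometric mean column was 0.453, 1.22 and 2.26 in KO oocytes at NGO, GO and FGO, against 0.514, 1.29 and 1.31 in WT oocytes, and "rescaled" below means divided by this factor.

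The stem-loop of canonical histone RNAs was searched for in the GENCODE M21 transcripts (GRCm38, the build also called mm10) on the transcript strand as the arm GGNNCT, the loop TTTN and the arm AGNNCC without a gap, with the N bases of both arms able to pair. It was present in 40 of 74 histone genes (54.1%), in 10 of the 26 compared (38.5%) and in 10 of 55376 other genes (0.0181%). Of the 50 canonical core genes 32 held it (64.0%), against 4 of 14 variant core and 4 of 10 linker genes. The forms found in compared members are shown because RNAs with a stem-loop can end without a poly(A) tail, and the capitals mark the loop.
H2ax: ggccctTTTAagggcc
H4c3: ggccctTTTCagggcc
H1f2: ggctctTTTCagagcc
H2bc12: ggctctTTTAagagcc
The H2ax form, at chr9:44335240-44335255 on the plus strand, was found in no other member. The H4c3 form, at chr13:23698089-23698104 on the minus strand, was shared by 5 members, among them H4c8. H1f2 carried its stem-loop at chr13:23739512-23739527 on the plus strand, in the form held by 23 members, which include H2ac18, H2aw, H2bc8, H2bu2 and H3c15. The H2bc12 form, at chr13:22036300-22036315 on the plus strand, was held by 6 members.

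The annotated transcripts of several compared members run on past the stem-loop. H2ax has 822 bases after it in a transcript of 1384 bases, H1f2 has 840, H2aw has 1643, H4c3 has 454 and H3c15 has 377. Others end soon after it, with 46 bases in H4c8, 35 in H2ac18 and 30 in H2bc12. Compared members of high level without a match were H1f8, H3f3b, H3f3a, H2az1, H1f0, H2ac1 and H2bc4. An absent match says only that these letters do not stand in the annotated transcripts. Some of these are short, such as 390 bases for H2ac1, and may stop before a stem-loop.

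Linker histone RNA was the most abundant histone RNA, and nearly all of it came from 1 gene. H1f8, at chr6:115944938-115950236 on the plus strand, was at 737, 2156 and 4929 FPKM in KO oocytes at NGO, GO and FGO, against 970, 2799 and 3604 FPKM in WT oocytes. Its level was higher at each later stage in both genotypes. H1f8 made up 97.3% to 99.0% of the summed H1 level and 66.0% to 74.2% of the summed level of all histone genes. H1f0, the replacement H1 of resting cells, was at 14, 24.8 and 39.0 FPKM in KO oocytes and at 14.7, 19.1 and 22.0 FPKM in WT oocytes.

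Of the 5 replication-dependent H1 genes, 2 were compared, and they did not follow the same course over the stages. H1f1 was at 0.971, 8.0 and 13.9 FPKM in KO oocytes at the 3 stages and at 2.86, 9.39 and 9.75 FPKM in WT oocytes. H1f2, at chr13:23738808-23740367 on the plus strand, was at 5.38, 11.6 and 9.06 FPKM in KO oocytes and at 7.15, 6.21 and 2.32 FPKM in WT oocytes. Thus H1f1 was lowest at NGO in both genotypes, while H1f2 was lowest at NGO in KO oocytes and at FGO in WT oocytes.

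**Figure D1:**
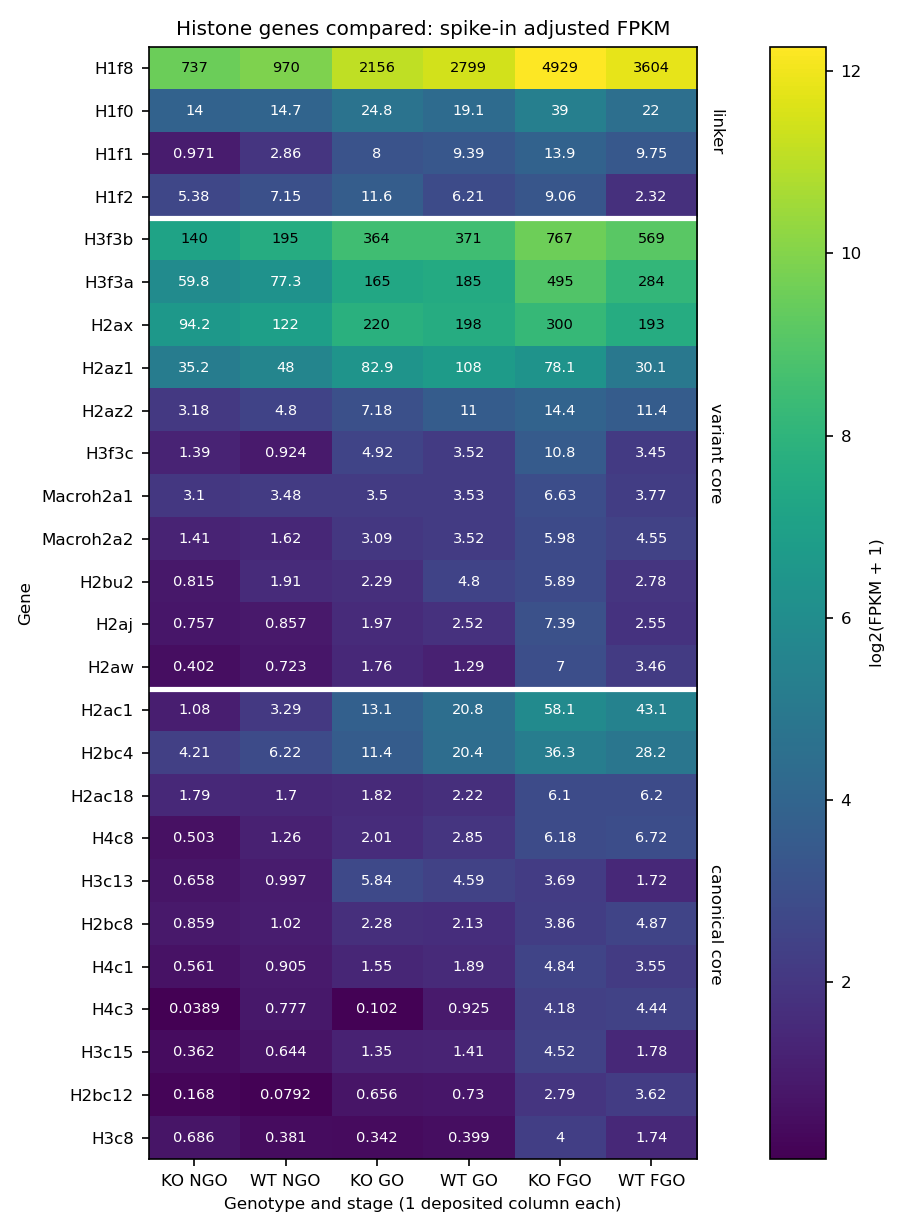
Spike-in adjusted FPKM of the 26 compared histone genes (rows) in the 6 deposited columns, coloured by log2(FPKM + 1). H1f8 stands above all other rows, and canonical core genes other than H2ac1 and H2bc4 stay under 7 FPKM in every column.

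The H3 RNA was almost wholly that of H3.3, the replacement H3 that both H3f3a and H3f3b encode. H3f3b was at 140, 364 and 767 FPKM in KO oocytes at NGO, GO and FGO, against 195, 371 and 569 FPKM in WT oocytes. H3f3a was at 59.8, 165 and 495 FPKM in KO oocytes and at 77.3, 185 and 284 FPKM in WT oocytes. Together these genes held 97.4% to 98.8% of the summed H3 level in the 6 columns. H3f3b exceeded H3f3a by 2.34, 2.2 and 1.55 times in KO oocytes, against 2.52, 2.0 and 2.0 times in WT oocytes. H3f3c, at chr2:119665626-119666036 on the minus strand, is a processed pseudogene in GENCODE, 99.0% identical to H3f3a over its full length, so its reads may belong in part to H3f3a. It was at 1.39, 4.92 and 10.8 FPKM in KO oocytes and at 0.924, 3.52 and 3.45 FPKM in WT oocytes.

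Among the H2A genes, H2ax and H2az1 stood above the rest at every stage but FGO in WT oocytes, where H2ac1 passed H2az1. H2ax, whose protein is phosphorylated around DNA breaks, was at 94.2, 220 and 300.4 FPKM in KO oocytes at NGO, GO and FGO, against 122, 198 and 193 FPKM in WT oocytes. It made up 56.3% to 66.7% of the summed H2A level. H2az1, at chr3:137864487-137866922 on the plus strand, encodes H2A.Z, a variant of promoter nucleosomes. It was at 35.2, 82.9 and 78.1 FPKM in KO oocytes and at 48.0, 108 and 30.1 FPKM in WT oocytes. The H2A.Z genes H2az1 and H2az2 together held 27.1%, 26.9% and 19.1% of the summed H2A level in KO oocytes, against 28.3%, 34% and 13.9% in WT oocytes. Their share was lowest at FGO in both genotypes.

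Lower H2A genes included the macroH2A genes, whose proteins carry a large extra domain and mark inactive chromatin, and H2aj. Macroh2a1 was nearly level from NGO to GO, at 3.10, 3.50 and 6.63 FPKM in KO oocytes and at 3.48, 3.53 and 3.77 FPKM in WT oocytes. H2aj, which encodes the variant H2A.J and lies at chr6:136808244-136810074 on the plus strand, was at 0.757, 1.97 and 7.39 FPKM in KO oocytes and at 0.857, 2.52 and 2.55 FPKM in WT oocytes. In WT oocytes H2aj was thus as high at GO as at FGO, and in KO oocytes it was highest at FGO. H2bu2, an H2B gene outside the large clusters, was at 0.815, 2.29 and 5.89 FPKM in KO oocytes and at 1.91, 4.80 and 2.78 FPKM in WT oocytes.

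Canonical core RNA was a small part of the total. The 50 genes together made up 1.07%, 1.40% and 2.08% of the summed histone level in KO oocytes at NGO, GO and FGO, against 1.26%, 1.60% and 2.27% in WT oocytes. H2ac1 and H2bc4 alone held 44.5% to 67.8% of that sum. H2ac1, at chr13:23934462-23934851 on the plus strand, encodes an H2A made in testis and oocytes and was formerly named Hist1h2aa. Its place among the canonical genes follows from its symbol alone, so the canonical sums and medians include this germ-cell H2A. H2ac1 was at 1.08, 13.1 and 58.1 FPKM in KO oocytes and at 3.29, 20.8 and 43.1 FPKM in WT oocytes. H2bc4, at chr13:23684199-23692908 on the plus strand, was at 4.21, 11.4 and 36.3 FPKM in KO oocytes and at 6.22, 20.4 and 28.2 FPKM in WT oocytes. H2bc4 alone supplied 65.5% to 72.0% of the summed H2B level.

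The canonical H3 and H4 genes were lower still. H3c13 was at 0.658, 5.84 and 3.69 FPKM in KO oocytes and at 0.997, 4.59 and 1.72 FPKM in WT oocytes, and so was highest at GO in both. H4c8 was at 0.503, 2.01 and 6.18 FPKM in KO oocytes and at 1.26, 2.85 and 6.72 FPKM in WT oocytes. H4c3 was at 0.0389, 0.102 and 4.18 FPKM in KO oocytes and at 0.777, 0.925 and 4.44 FPKM in WT oocytes. For these low genes the error of a value is unknown, because the read depth is not known.

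From H4, the lowest, to H1, the highest, the summed levels of the 5 histones lay far further apart than those of the genotypes. Some sums were close, such as 203 FPKM for H3 and 141 FPKM for H2A in KO oocytes at NGO. All H3 genes together gave 203, 543 and 1289 FPKM in KO oocytes at NGO, GO and FGO, against 276, 568 and 864 FPKM in WT oocytes. All H4 genes together gave 1.20, 4.56 and 17.3 FPKM in KO oocytes and 3.28, 6.75 and 17.1 FPKM in WT oocytes. The polyadenylated H3 sum was 170, 119 and 74.7 times the H4 sum in KO oocytes, against 84.0, 84.1 and 50.4 times in WT oocytes. The H2A sum was likewise 22.8, 19.8 and 9.59 times the H2B sum in KO oocytes and 19.6, 12.3 and 7.33 times in WT oocytes. Both ratios were lowest at FGO in each genotype. These sums count RNA caught by its poly(A) tail and are no measure of protein.

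**Figure D2:**
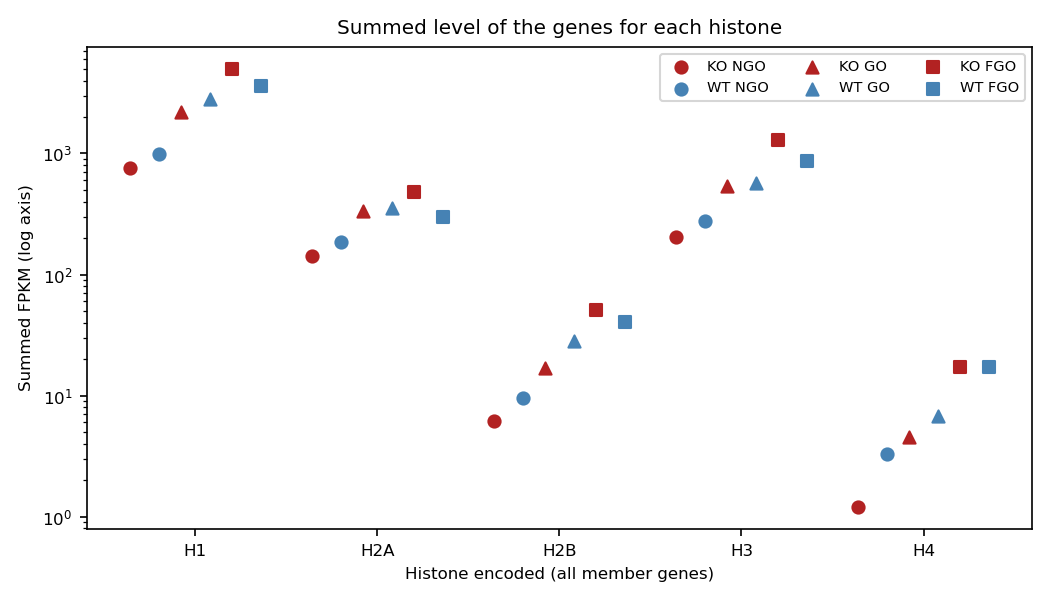
Summed FPKM (log axis) of the member genes for each histone, by genotype (colour) and stage (shape). H1 runs from 758 to 4992 FPKM in KO oocytes and from 996 to 3639 FPKM in WT oocytes, and H4 from 1.20 to 17.3 FPKM in KO oocytes and from 3.28 to 17.1 FPKM in WT oocytes.

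At NGO, most histone genes had lower values in KO than in WT oocytes, as had most genes of the table, with small differences. The difference was below 0 for 22 of 26 compared members (84.6%) and for 70.1% of all genes, and after rescaling for 19 members (73.1%) and 48.4% of all genes. Their median difference was -0.33, with -0.27 for canonical core, -0.36 for variant core and -0.37 for linker genes, beside -0.11 for all 10110 genes. As deposited, 1 member was called lower, H2ac1 (difference -1.04), where 0.326% of all genes compared were called lower. No member was called higher, where 0.0297% of all genes were. After rescaling the members' median was -0.24, beside 0.01 for all genes, and 3 members were called lower, where 0.356% of all genes were. These were H1f1 (-1.06), H2ac1 (-1.13) and H4c3 (-1.21).

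The NGO values behind these calls were low. H2ac1 was at 1.08 FPKM in KO oocytes and 3.29 FPKM in WT oocytes, a KO to WT ratio of 0.329. H1f1 had a ratio of 0.339 and H4c8 of 0.399. H4c3 had a ratio of 0.0501, with both values under 1 FPKM. The abundant members were closer together, with ratios of 0.760 for H1f8, 0.717 for H3f3b, 0.774 for H3f3a, 0.773 for H2ax and 0.732 for H2az1. Summed over the H4 genes, the ratio of KO to WT was 0.365 at NGO, then 0.675 at GO, and 1.01 at FGO. Rescaled, these ratios were 0.414, 0.712 and 0.583, so that the FGO sum was level with WT on the deposited scale only.

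At GO, no histone gene was called in either direction, as deposited or rescaled. Among all genes compared, 0.95% were called higher and 2.03% lower as deposited, and 1.05% and 1.28% after rescaling. The members' median difference was -0.15, beside -0.09 for all genes. The widest differences were -0.82 for H2bu2 and -0.80 for H4c3 on the lower side and 0.81 for H1f2 on the higher side. H2bc4 was at 11.4 FPKM in KO oocytes and 20.4 FPKM in WT oocytes, a ratio of 0.556, and H2ac1 had a ratio of 0.631. The linker H1f8 had a ratio of 0.770, close to its ratio at NGO, while H3f3b, H3f3a and H2ax had ratios of 0.980, 0.893 and 1.11.

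At FGO, most histone genes had higher values in KO than in WT oocytes, as had most genes of the table. As deposited, 4 members were called higher, where 25.8% of all genes compared were. These were H1f2 (difference 1.60), H3f3c (1.41), H2az1 (1.35) and H2aj (1.24), none of them a canonical core gene. With a pseudocount of 0.1 the count was 8, where 35.5% of all genes were called in either direction, and the added genes were H2bu2 and the canonical H3c8, H3c13 and H3c15. H3c8, with a mean of 1.26 FPKM, was compared through its FGO columns alone, at 4.00 FPKM in KO and 1.74 FPKM in WT oocytes. The filter thus bears on its call, and H3c15 also needed its FGO values to pass. The canonical H3 sum was 16.5 FPKM in KO and 6.73 FPKM in WT oocytes, a ratio of 2.45, or 1.42 after rescaling. None was called lower, where 0.158% of all genes were. Of the marker sums given above, those of oocyte, granulosa, immune, endothelial and blood, and dividing cells were higher and that of theca and stroma lower in KO oocytes at this stage. Single genes made up most of the immune, the endothelial and blood, and the theca and stroma sums. The difference was above 0 for 21 of 26 members (80.8%) and for 95.4% of all genes, with medians of 0.55 and 0.72. After rescaling no member was called in either direction, where 1.68% of all genes were called higher and 0.94% lower. Rescaled, the differences of the 4 were 0.85 for H1f2, 0.67 for H3f3c, 0.57 for H2az1 and 0.53 for H2aj.

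The classes stood at different places in the FGO comparison. All 11 variant core genes compared were above 0 with a median of 0.80, and all 4 linker genes were above 0 with a median of 0.63. Of the 11 canonical core genes 6 were above 0, with a median of 0.35. The other 5 canonical genes were slightly below 0, with differences of -0.02 for H2ac18, -0.07 for H4c3, -0.10 for H4c8, -0.27 for H2bc8 and -0.28 for H2bc12. After rescaling the medians were -0.40 for canonical core, 0.02 for variant core and -0.11 for linker genes, beside 0.02 for all genes. The difference between classes was not tested. On the deposited scale, a stem-loop was annotated in each of the 5 canonical genes below 0 and in 1 of the 6 above 0, H3c15, a count made after the values were seen. Rescaled, H2ac1 (-0.35), H2bc4 (-0.40) and H4c1 (-0.24), which have no match, were below 0 as well. Short annotated transcripts, such as 390 bases for H2ac1, may also stop before a stem-loop. The compared stem-loop members of the other classes, H2ax (0.64), H1f2 (1.60), H2bu2 (0.86) and H2aw (0.84), were above 0, so that 5 of the 10 members with a stem-loop lay on each side as deposited. Rescaled, H2ax was below 0 (-0.15), while H1f2 (0.85), H2bu2 (0.20) and H2aw (0.17) stayed above it.

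Among the abundant members at FGO, the KO to WT ratio was 1.37 for H1f8, 1.35 for H3f3b, 1.74 for H3f3a, 1.56 for H2ax and 2.59 for H2az1. The canonical genes H2ac1 and H2bc4 had ratios of 1.35 and 1.29. The median-ratio factor of the same pair of columns was 2.26 in KO and 1.31 in WT oocytes. On the rescaled level H1f8 therefore stood at 2182 FPKM in KO oocytes, against 2758 FPKM in WT oocytes, and its difference there was -0.34. H1f2 was at 4.01 FPKM rescaled in KO oocytes and at 1.77 FPKM in WT oocytes.

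**Figure D3:**
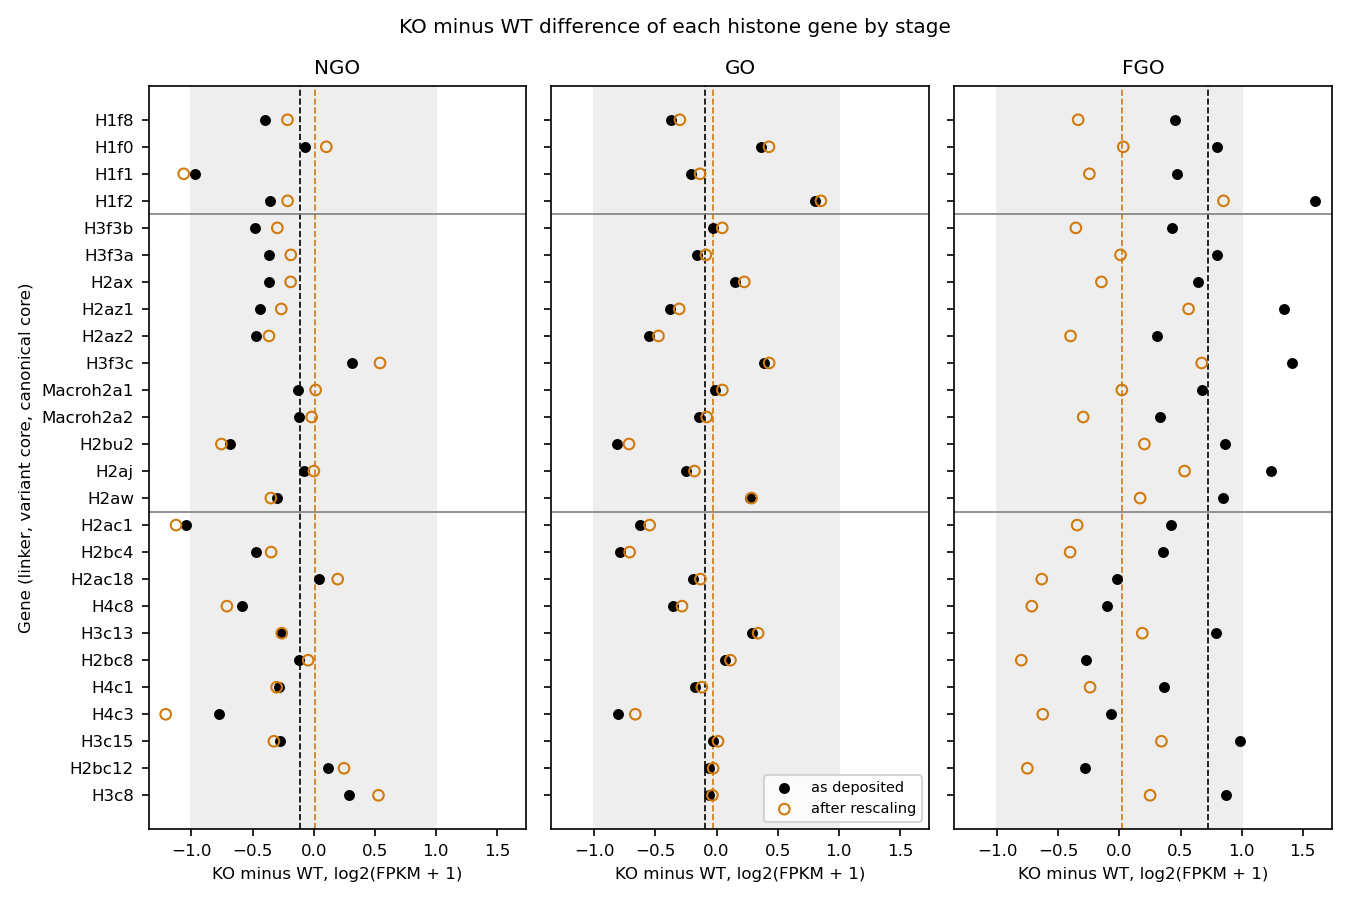
KO minus WT difference on log2(FPKM + 1) of the 26 compared histone genes at NGO, GO and FGO, as deposited (filled) and after rescaling (open). Dashed lines mark the median of all 10110 genes and the grey band the range without a call: at FGO 4 filled points lie right of it and no open point does.

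From NGO to GO, most histone genes were higher at the later stage in both genotypes, as most genes were. In KO oocytes 11 of 26 members were called higher and none lower, where 57.6% of all genes were called higher and 0.089% lower. In WT oocytes 9 members were called higher and none lower, where 54.8% of all genes were called higher and 0.129% lower. The members' median difference was 0.97 in KO and 0.78 in WT oocytes, beside 1.10 and 1.06 for all genes. H2ac1 stepped furthest, with 2.76 in KO and 2.35 in WT oocytes. H1f8 had 1.55 in KO and 1.53 in WT oocytes, and H3f3a had 1.45 and 1.25 in the same order.

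After rescaling, 4 of 26 members were called between NGO and GO in KO oocytes and 3 in WT oocytes, where 7.96% and 9.34% of all genes were. In KO oocytes H1f1 (1.26), H2ac1 (1.79) and H3c13 (1.23) were called higher and Macroh2a1 (-1.02) lower, where 5.37% of all genes were called higher and 2.59% lower. In WT oocytes H2ac1 (1.21) was called higher and H1f2 (-1.36) and Macroh2a1 (-1.06) lower, where 6.06% of all genes were called higher and 3.27% lower. H2ac1 and Macroh2a1 were thus called the same way in both genotypes. Of all genes, 98.0% in KO and 96.8% in WT oocytes were above 0 in this step as deposited. After rescaling, 51.7% and 50.5% were below 0, so the sign turned with the scale for many genes of the table. The direction of the step turned with the scale for 13 of 26 members in KO and 17 in WT oocytes. Among these, H1f0, H2ax, H2az1, H3f3b and Macroh2a1 were of the other sign in both genotypes, H1f2, H2aj and H2bc4 in KO oocytes alone, and H2bu2, H3f3a and H4c8 in WT oocytes alone.

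From GO to FGO, the steps in KO and WT oocytes parted on the deposited scale. In KO oocytes 15 of 26 members were called higher, where 39% of all genes were, and none lower, where 0.514% were. Of the 15, 9 were canonical core, 5 variant core and 1 linker. In WT oocytes 5 members were called higher, where 6.5% of all genes were. These were the canonical genes H2ac1 (1.02), H2ac18 (1.16), H2bc12 (1.42), H4c3 (1.5) and H4c8 (1.0). Since H2bc12 and H4c3 were compared through their FGO columns alone, a higher FGO value in at least 1 genotype follows from the filter. In the same step 3 members were called lower in WT oocytes, where 9.22% of all genes were, namely H2az1 (-1.81), H1f2 (-1.12) and H3c13 (-1.04).

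The compared canonical core genes had a median in this step of 1.26 in KO and 0.97 in WT oocytes, beside 0.84 and 0.08 for all genes. Without H2bc12, H3c8 and H4c3, which were set aside only once their values were known, the median was 1.24 in KO and 0.78 in WT oocytes, and over all 50 canonical genes it was 0 in both. H3c15, which also needed its FGO values to pass the filter, was not among those set aside. After rescaling the compared canonical genes had medians of 0.54 in KO and 0.84 in WT oocytes, beside 0.04 and 0.06 for all genes. Variant core genes had deposited medians of 1.0 in KO and 0.04 in WT oocytes, and linker genes of 0.68 and 0.12. Rescaled, H2ac1 (1.19), H3c8 (1.12) and H4c3 (1.39) were called higher and H1f2 (-1.07) and H3c13 (-1.13) lower in KO oocytes, where 6.42% of all genes were called higher and 3.66% lower. In WT oocytes H2ac18 (1.08), H2bc12 (1.27) and H4c3 (1.36) were called higher and H1f2 (-1.07) and H2az1 (-1.82) lower, where 5.78% and 8.33% of all genes were. H4c3 and H1f2 were called on the same side in both genotypes, and the filter bears on H4c3, H2bc12 and H3c8 here too.

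On the deposited scale the H2az1 step stood furthest apart between the genotypes. Its GO to FGO difference was -0.08 in KO oocytes, against -1.81 in WT oocytes. The KO step exceeded the WT step by 1.73, and by 0.87 after rescaling. The gap was 1.68 for H2bu2, 1.49 for H2aj and 1.15 for H2bc4 on the deposited scale, and 0.92, 0.71 and 0.31 after rescaling. Whether the steps differ beyond the error could not be tested with 1 column each.

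**Figure D4:**
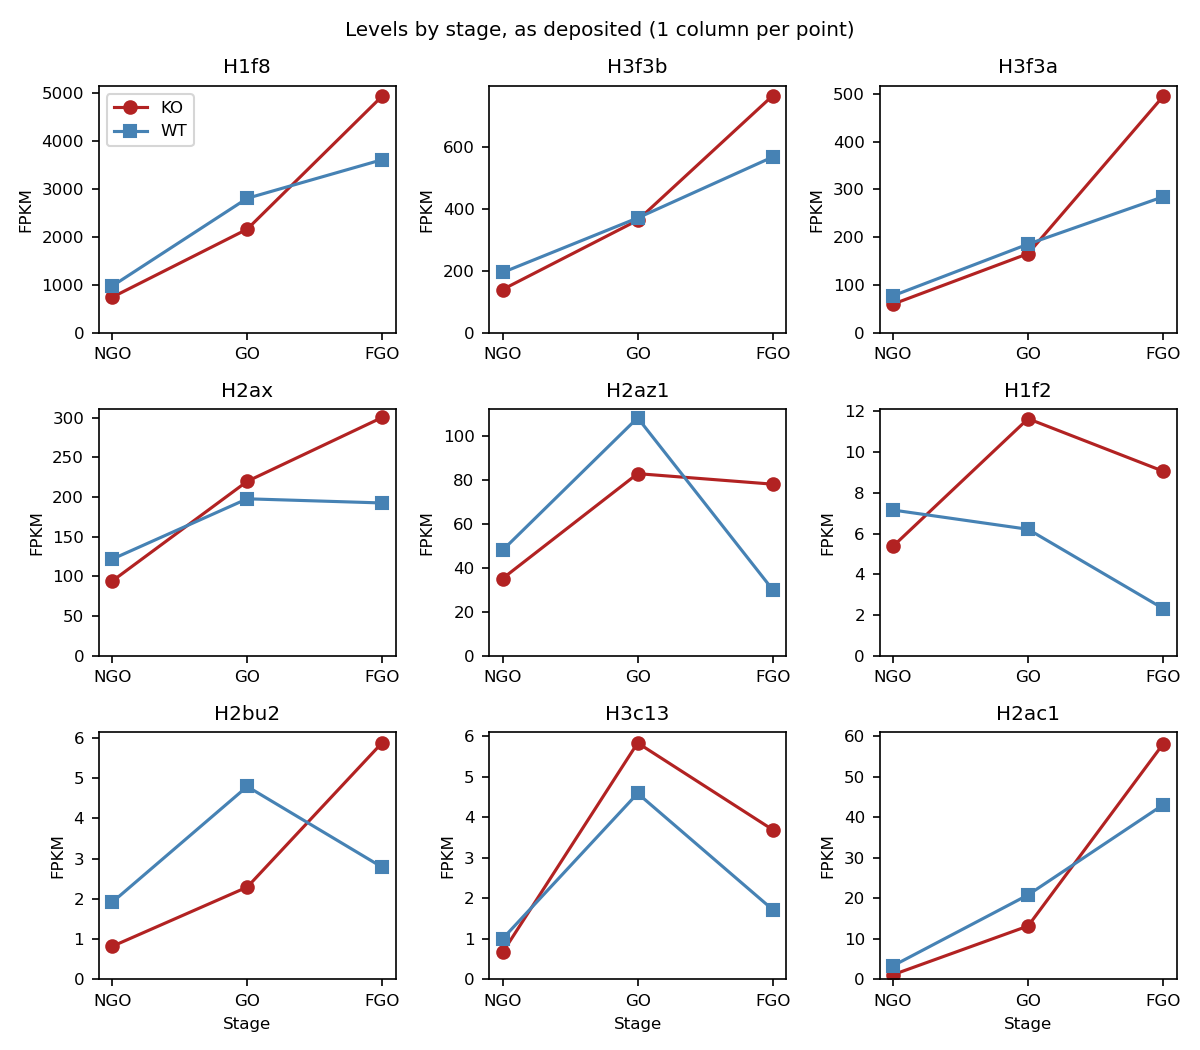
FPKM of 9 histone genes at NGO, GO and FGO in KO (red circles) and WT (blue squares) oocytes, 1 deposited column per point, each panel on its own axis. H2az1 is at 78.1 FPKM at FGO in KO oocytes, against 30.1 FPKM in WT oocytes, and the lines of H1f2 part from GO on.

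By stage of highest value, 23 of 26 members peaked at FGO and 3 at GO in KO oocytes, where 89.4% of all genes peaked at FGO and 9.86% at GO. In WT oocytes 20 peaked at FGO, 5 at GO and 1 at NGO, where 54.5%, 43.0% and 2.48% of all genes did. The FGO counts include H2bc12, H3c8 and H4c3, which were compared through their FGO columns alone, and H3c15, which needed its FGO values. The filter therefore bears on these counts, and whether they differ from the shares of all genes was not tested. The 1 gene highest at NGO in WT oocytes was H1f2. After rescaling 15 members peaked at FGO, 2 at GO and 9 at NGO in KO oocytes, and 16, 3 and 7 in WT oocytes. The rescaled peaks of all genes were not counted, and the shares above hold for the deposited scale only. Rescaling moved all genes, with 51.7% in KO and 50.5% in WT oocytes then lower at GO than at NGO, against 2.05% and 3.14% as deposited.

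Most histone genes lie in clusters, and some neighbours in a cluster had very different levels. Of the 74 members, 47 lie on chromosome 13 and 11 on chromosome 3, and 11 and 4 of these were compared. GENCODE places 10 pairs of members head to head with starts at most 1000 bases apart. In the 4 pairs with a compared member, the partner was near 0. H2ac1, with a mean of 23.2 FPKM, starts 306 bases from H2bc1, which encodes an H2B of the testis and had a mean of 0.199 FPKM. H2bc4, with a mean of 17.8 FPKM, starts 251 bases from H2ac6, which had a mean of 0.0502 FPKM. H2bc8 and H2bc12, at 2.5 and 1.34 FPKM, face H2ac8 and H2ac12, at 0.0199 and 0.00696 FPKM. So in each of these pairs, taken because 1 gene passed the filter, that gene carried nearly all the polyadenylated RNA listed. In the other pairs both genes had means under 1 FPKM. H2ac8 and H2ac12 have 8 and 12 other genes at 95% identity over 50% or more of the transcript, so their fragments may have been assigned elsewhere.

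Promoter letters were read from RefSeq (GRCm38.p6) for the 250 bases before the start, on both strands, for the 67 members with an entry in the promoter table and 27025 genes in all. CCAAT stood in 77.6% of member promoters and 37.5% of all promoters, TATAAA in 38.8% and 14.3%, and the octamer ATGCAAAT, which stands before many H2A and H2B genes, in 22.4% and 1.81%. Among compared members 75.0% held CCAAT, 25.0% TATAAA and 20.8% the octamer, and among members not compared 79.1%, 46.5% and 23.3%. The promoters of H2ac1, the member called lower at NGO, and of H1f8, the most abundant member, are shown because they differ in these letters. Capitals mark these 3 motifs on either strand, and none of the marked stretches overlap.
H2ac1: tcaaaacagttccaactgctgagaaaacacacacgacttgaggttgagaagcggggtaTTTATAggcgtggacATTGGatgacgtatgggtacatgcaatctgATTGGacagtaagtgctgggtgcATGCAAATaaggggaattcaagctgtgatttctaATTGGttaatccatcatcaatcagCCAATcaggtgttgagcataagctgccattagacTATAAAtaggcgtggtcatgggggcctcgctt
H1f8: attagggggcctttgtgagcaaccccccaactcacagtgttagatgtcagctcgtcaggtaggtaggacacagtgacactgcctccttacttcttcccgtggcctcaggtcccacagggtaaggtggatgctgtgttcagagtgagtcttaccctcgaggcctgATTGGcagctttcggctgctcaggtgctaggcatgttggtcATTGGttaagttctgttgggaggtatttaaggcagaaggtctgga
The H2ac1 window, chr13:23934187-23934436 on the plus strand, holds all 3 motifs and lies between the starts of H2ac1 and H2bc1. The H1f8 window, chr6:115944681-115944930 on the plus strand, holds CCAAT on the reverse strand and neither of the others. A match is a description of the sequence and not a bound site.

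Genes that process histone RNA or carry histones were described as a list of 57, of which 56 were in the table and 55 were compared. At NGO, GO and FGO the list had median differences of -0.10, -0.04 and 0.69, beside -0.11, -0.09 and 0.72 for all genes. At NGO none was called, and the widest rescaled differences were 0.54 for Cpsf2, -0.53 for Cenpa, -0.45 for Lsm10 and 0.45 for Cstf2. Cpsf2 and Cstf2 act in RNA 3′ end cleavage, Cenpa encodes the centromeric H3, and Lsm10 is a part of the U7 particle that cleaves histone RNA. At GO 1 of 55 was called higher, where 0.95% of all genes were, and at FGO 11 were (20.0%), where 25.8% of all genes were. None was called lower at any stage.

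Zfp473, the mouse counterpart of the human U7 partner ZNF473, was the gene called at GO. It was at 9.06, 31.4 and 31.5 FPKM in KO oocytes at NGO, GO and FGO, against 8.76, 12.7 and 6.99 FPKM in WT oocytes. Its difference was 0.04, 1.24 and 2.02 at the 3 stages, and 0.22, 1.29 and 1.23 after rescaling, so it was called at GO and FGO on both scales. No other member of the list was called after rescaling. On the deposited scale the other 10 called at FGO were Cpsf3 (1.06), Cstf2 (1.74), Srrt (1.19), Eri1 (1.47), Mblac1 (1.25) and Coil (1.66) of RNA 3′ end processing and the chaperones or exchangers Ipo4 (1.08), Nap1l4 (1.40), Ruvbl1 (1.74) and Hjurp (1.13). Cpsf3 is the nuclease of histone RNA cleavage in mammals, and Eri1 trims the stem-loop end. Of the 17 compared processing genes, 7 were called higher at FGO, against 1 of 17 H3-H4 chaperones, 2 of 16 H2A-H2B chaperones or exchangers and 1 of 5 centromeric genes, where 25.8% of all genes were. The difference between these groups was not tested. The processing genes' median was 0.75, beside 0.72 for all genes, and 1 of the 17 was called after rescaling.

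Slbp, the stem-loop binding protein, was named after its values were seen. It was at 223, 937 and 1795 FPKM in KO oocytes, against 317, 1161 and 1199 FPKM in WT oocytes, and was not called at any stage.

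The remaining histone genes were at or near 0. Of the 48 not compared, 12 were listed at 0 in every column, which in a table without counts need not mean that no read was seen. The other 36 had means from under 0.001 to 0.836 FPKM. Near this level a gene's difference rests on few fragments, and none is given. The H3c7 values were 0.303, 0.654 and 2.21 FPKM in KO oocytes and 0.287, 0.468 and 1.09 FPKM in WT oocytes, and the H4c2 values 0.0938, 0.357 and 1.53 FPKM in KO oocytes and 0.107, 0.102 and 0.858 FPKM in WT oocytes. Both were highest at FGO in each genotype. The stem-loop was annotated in 30 of these 48 genes (62.5%), against 10 of the 26 compared.

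Near-identical copies limit what can be said of single histone genes. Of the 26 compared members, 11 have another gene with an identity of 95% or more across 50% or more of their longest transcript, so that fragments may have been split or assigned to either. These include H2ac18 with H2ac19, H3c15 with H3c14, H4c8 with H4c12 alone, and H3c13, H3c8, H2bc8 and H2bc12 with several cluster genes. H2ac18, at 1.79, 1.82 and 6.10 FPKM in KO oocytes and 1.70, 2.22 and 6.20 FPKM in WT oocytes, and H3c15 each stood on 2 lines of the table. The H2az1 transcript matches an annotated Tmcc1 transcript at 99.9% identity over 63.8% of its length. H1f8, H3f3a, H3f3b, H2ax, H2ac1, H2bc4, H1f0, H1f1, H1f2 and H2aj have no such copy. Stretches of 100 bases or more at this identity are shared with other genes by H3f3a and H2ax (17 genes each), H2aj (20), H2ac1 and H2bc4 (12 each), H3f3b (2) and H1f0 (1), so fragments there may be shared too. H1f8, H1f1 and H1f2 share none. Another gene overlaps 10 of the 26 members, most often on the other strand, and the library kit does not mark strand.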

How the data were processed

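The deposited table holds FPKM that the authors adjusted to the ERCC spike-in, as the table is named. How the adjustment was made, and on which annotation, is not stated in the labels or the table. Per the submitters' processing notes, the tools were Cufflinks 2.2.1, HISAT2 2.2.1 and Trim Galore 0.6.7, and the build was mm10. Per the labels' protocols, libraries came from 500 pg of cDNA and were read as 150 bp pairs. Read depth is unknown, so no counting interval is given.

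For a symbol on more than 1 line the line of largest mean was kept (4 members), and 2 lines with a cell that is no number were left out. Differences were taken on log2(FPKM + 1) where the mean reached 1 FPKM, and called at 1 or more. The designed tests need replicates and could not be run. Alternatives were median-ratio scaling, equal column totals, a smaller pseudocount (0.1), a higher filter (5 FPKM) or none, and leaving out symbols on several lines or genes at 0 in a column. Values in every column are given for compared members with a mean of at least 10 FPKM, members called between genotypes on either scale, the highest member of each subclass and those next to the limit. The members and lists were chosen with earlier results of these data known. Sequence came from GENCODE M21 and RefSeq GRCm38.p6, with all 74 members matched by gene and 67 having a promoter entry, and copies from blastn 2.17.0. The steps were tested on simulated data. Software was Python 3.11.15 with numpy 2.4.6, pandas 2.3.3 and matplotlib 3.10.9.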

Additional observations from a re-analysis of the deposited data

Results flagged for a closer look

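Of the 26 compared members, 3 had steps that ran in opposite directions in the 2 genotypes on the deposited scale and differed by at least 1 on log2(FPKM + 1). The share of all genes that meet this rule was not counted. From GO to FGO, 10.4% of all genes in KO and 45.0% in WT oocytes were below 0 on this scale. From NGO to GO, 2.05% and 3.14% were. H1f2 had a step from NGO to GO of 0.99 in KO oocytes and -0.18 in WT oocytes. H2bu2 had a step from GO to FGO of 1.07 in KO oocytes and -0.61 in WT oocytes. H3f3c had a step from GO to FGO of 1.0 in KO oocytes and -0.023 in WT oocytes. Each rests on 1 column per genotype and stage, and the difference between genotypes was not tested. After rescaling both steps of H1f2 were negative, -0.29 in KO and -1.36 in WT oocytes, so they no longer ran in opposite directions. The rescaled steps were 0.33 in KO and -0.59 in WT oocytes for H2bu2, and 0.21 and -0.04 for H3f3c in the same order. The KO step then exceeded the WT step by 1.07 for H1f2, 0.92 for H2bu2 and 0.24 for H3f3c.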

How the results depend on the processing

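Read depth and the spread between samples are unknown, so every count below describes 6 columns. No paired analysis was possible because the table has 1 column per genotype and stage, and leaving out replicates was not run for the same reason. The share of all genes called in either direction stands in brackets after each count of called members. Of the KO against WT counts, NGO moved from 1 (0.356%) to 3 with median-ratio scaling (0.485%), 3 with equal totals (0.623%) and 5 when the pseudocount was 0.1 (2.69%). GO moved from 0 (2.98%) to 2 with that pseudocount (6.63%). FGO moved from 4 (26%) to 0 with median-ratio scaling (2.62%) and with equal totals (3.18%), 8 with the smaller pseudocount (35.5%) and 2 of 11 members with a mean of at least 5 (27.3%). From NGO to GO, the count moved in KO oocytes from 11 (57.7%) to 4 with median-ratio scaling (7.96%), 6 with equal totals (8.96%) and 21 with the smaller pseudocount (74.8%), and in WT oocytes from 9 (54.9%) to 3 (9.34%), 3 (10.2%) and 15 (70.2%). From GO to FGO it moved in KO oocytes from 15 (39.5%) to 5 with median-ratio scaling (10.1%), 6 with equal totals (11.8%) and 5 of 11 with a mean of at least 5 (46.6%), and in WT oocytes from 8 (15.7%) to 5 (14.1%), 5 (16.6%) and 3 (12%). Of steps of 1 or more, those from NGO to GO turned negative under median-ratio scaling and under equal totals, in KO oocytes for H2ax (-0.21 under both), H2az1 (-0.20 and -0.19), H2bc4 (-0.0027 and -0.0012), H3f3b (-0.052 and -0.051) and the median of linker genes (-0.090 and -0.091), and in WT oocytes for H2az1 (-0.15 and -0.12) and H3f3a (-0.065 and -0.032). The cause was not tested. Counting values of any size, 41 of the 140 differences and class medians had the other sign under median-ratio scaling and 45 under equal totals, and none did under the other alternatives. With symbols on 1 line only, the counts from GO to FGO were 13 in KO and 7 in WT oocytes. That alternative and leaving out genes listed at 0 kept every count and difference within 1.5 times its main value.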
